A study of Homo sapiens with 8 samples.

Results

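The BCL2 family sets the threshold for the mitochondrial route of apoptosis, and its RNA levels were described here in a pair of established cell lines from human bladder cancer, UM-UC-3 and RT112. The 10 members were taken by gene symbol from the table of 27475 human genes, and all 10 were above 0 TPM in all 8 libraries. TPM, the unit of transcript abundance in the table, is corrected for gene length and brought to a common sum in each library, so levels of different genes can be set side by side.

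Cells of each line received either siPAI-1, a pool of 3 siRNAs against PAI-1, or Scr, a pool of 3 scrambled control siRNAs, at 100 pmol and for 72 h. The 4 groups were UM-UC-3 Scr, UM-UC-3 siPAI-1, RT112 Scr and RT112 siPAI-1, with 2 libraries each. All groups were transfected, so Scr is a transfected control and not untreated cells. The study describes its knock-down as 3 independent replicate experiments, while each group here holds 2 libraries. The labels only number the libraries and do not tie them to separate cultures. A p-value therefore measures the spread between these libraries, which may be technical. The lines also differ in the genome of 1 tumor each, so a difference between them belongs to this pair of lines.

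The proteins of this family meet at the outer mitochondrial membrane. BAX and BAK1, the effectors, assemble into pores that release cytochrome c and thereby activate caspases. BCL2, BCL2L1 (BCL-XL) and MCL1 hold the effectors in check, and the BH3-only proteins BCL2L11 (BIM), BBC3 (PUMA), PMAIP1 (NOXA), BID and BAD are the stress sensors that bind the inhibitors or, in some cases, activate the effectors directly. Much of this control acts on the proteins, by cleavage, phosphorylation and degradation, which RNA levels do not show.

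The members lie on several chromosomes (RefSeq, GRCh38.p14). BCL2 is at chr18:63123346-63320090, BCL2L1 at chr20:31664452-31723963, MCL1 at chr1:150574558-150579610, BAX at chr19:48954875-48961798 and BAK1 at chr6:33572552-33580276. Of the BH3-only genes, BCL2L11 is at chr2:111120914-111168445, BBC3 at chr19:47220824-47232860, PMAIP1 at chr18:59899996-59904305, BID at chr22:17734138-17774665 and BAD at chr11:64269828-64284704.

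Of the members whose level differed between the lines, 3 are shown by the 250 bases before their outermost RefSeq start, on the strand of the gene. Capitals mark GGGCGG (the GC box), CCAAT and TATAAA on either strand. The BAK1 window is chr6:33580277-33580526, the BID window chr22:17774666-17774915 and the BCL2L1 window chr20:31723964-31724213, all on the minus strand of GRCh38.p14.
BAK1: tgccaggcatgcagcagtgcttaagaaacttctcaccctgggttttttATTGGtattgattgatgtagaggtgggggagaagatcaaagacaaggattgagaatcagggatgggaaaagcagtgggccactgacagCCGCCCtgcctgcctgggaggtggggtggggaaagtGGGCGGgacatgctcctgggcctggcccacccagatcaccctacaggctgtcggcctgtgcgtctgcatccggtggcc
BID: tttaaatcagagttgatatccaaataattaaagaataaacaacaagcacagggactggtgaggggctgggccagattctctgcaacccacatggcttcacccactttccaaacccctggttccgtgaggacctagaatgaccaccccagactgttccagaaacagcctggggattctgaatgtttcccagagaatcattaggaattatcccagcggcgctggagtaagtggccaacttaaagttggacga
BCL2L1: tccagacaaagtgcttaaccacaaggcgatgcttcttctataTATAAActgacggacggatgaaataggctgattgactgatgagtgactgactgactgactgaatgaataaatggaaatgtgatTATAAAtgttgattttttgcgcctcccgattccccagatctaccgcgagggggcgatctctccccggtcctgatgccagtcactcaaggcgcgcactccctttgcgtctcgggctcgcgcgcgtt
BAK1 and BID were higher in RT112 and BCL2L1 was lower there, as given further on. The BAK1 window held 2 matches to GGGCGG and 1 to CCAAT, the BCL2L1 window held 2 matches to TATAAA, and none of these letters was in the BID window. Over 35116 RefSeq windows of the same length, 42.6% held GGGCGG, 32.0% held CCAAT and 10.7% held TATAAA. GC content was 58% in the BAK1 window, 47.6% in the BID window and 50% in the BCL2L1 window, against a median of 58% over all windows. Entries matched 7 of the 10 members, and the matching windows of PMAIP1 and BCL2L11 held 4 and 3 matches to GGGCGG. Over all windows 13.9% held 3 or more, and GC content was 72.8% in the PMAIP1 window and 76.8% in the BCL2L11 window. A match is a description of the letters and no evidence of a bound factor, and which start these cells use was not tested.

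The depth of the libraries, estimated from the steps between low FPKM values, was 29.3 to 34.2 M reads (M for mega), and 16157 to 16663 genes were above 0 TPM per library. At this depth the least covered members rested on at most 205 to 759 reads per library for BCL2 and 224 to 331 for BBC3, while BCL2L1 rested on at most 6246 to 9069. Of 7 epithelial markers, 7 were at 1 TPM or more in all 4 RT112 libraries and 3 in all 4 UM-UC-3 libraries. Their summed level was 10896 to 12361 TPM in RT112 and 219 to 238 TPM in UM-UC-3. In UM-UC-3 EPCAM stayed at or under 0.46 TPM and CDH1 at or under 0.48 TPM. The 3 markers at 1 TPM or more there were KRT18 (167 to 186 TPM), KRT8 (31.2 to 42.1 TPM) and KRT7 (7.99 to 10.9 TPM), and KRT18 held most of the sum. Of the mesenchymal-type genes, VIM was at 2852 to 3142 TPM in UM-UC-3 and 6.04 to 8.09 TPM in RT112, and ZEB1 at 43.1 to 48.3 TPM and 0.21 to 0.26 TPM. CDH2 went the other way with Scr, where RT112 held 18.2 and 20.6 TPM against 10.6 and 9.22 TPM in UM-UC-3, and overlapped between the lines with siPAI-1. Leukocyte markers summed to 0.32 to 0.83 TPM and endothelial markers to 0.13 to 2.35 TPM over all libraries, and fibroblast markers to 4.37 to 6.54 TPM in UM-UC-3 and 17.5 to 25.1 TPM in RT112. The part of these marker differences in the results on the members was not tested. In bulk RNA, a change in the share of cells that express a gene and a change per cell cannot be told apart.

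In every group BAX had the highest level and BCL2 the lowest. In UM-UC-3 Scr the order was BAX, BCL2L1, BID, BAD, MCL1, PMAIP1, BAK1, BCL2L11, BBC3 and BCL2, and the ranges of the replicates overlapped between BID and BAD and between BCL2L11 and BBC3. In RT112 Scr the order was BAX, BID, MCL1, BCL2L1, BAD, BAK1, PMAIP1, BBC3, BCL2L11 and BCL2, with overlap between BBC3 and BCL2L11. BAX, at a mean of 188 ± 15.2 TPM (SD, n = 2) in UM-UC-3 Scr and 168 ± 9.55 TPM in RT112 Scr, stood above 95.2% and 94.2% of the expressed genes. BCL2, at 2.71 ± 0.559 and 1.69 ± 0.424 TPM, stood above 38.8% and 33.2%.

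**Figure D1:**
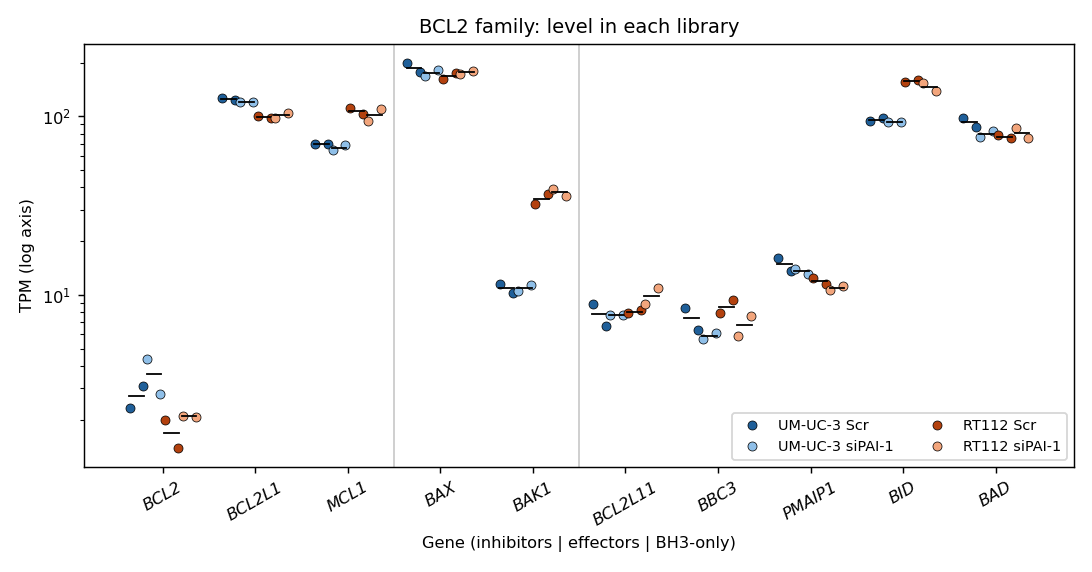
TPM of each member on a log axis, with 1 point per library, colors for the 4 groups and a bar at the group mean. The RT112 points of BAK1 lie at 32.2 to 39.1 TPM, above all UM-UC-3 points at 10.2 to 11.5 TPM, while the BAX points of the lines lie together.

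The first question was how the family differs between the lines without the knock-down. In the Scr libraries BAK1, BID and MCL1 were higher in RT112 and BCL2L1 was lower, 4 of the 10 members at an adjusted p under 0.05 (limma on log2(TPM + 0.1), Benjamini-Hochberg over 19201 genes). The lines differ widely in their RNA, and 51.6% of all genes tested were called in this comparison, 25.3% higher and 26.3% lower in RT112, and 64.6% of those with a mean of at least 1 TPM were called. The count of 4 in 10 was not above this background. The median log2 difference was -0.05 over the members and -0.06 over all genes.

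Among the inhibitors, MCL1, a short-lived protein that many cells need to survive, was at 69.6 and 69.7 TPM in UM-UC-3 Scr and at 111 and 103 TPM in RT112 Scr. The libraries of the lines did not overlap, and the log2 difference was 0.62 ± 0.06 (SE, adjusted p = 0.00272, limma), a 1.54-fold higher level in RT112. BCL2L1, the inhibitor with the highest level in UM-UC-3, went the other way. It was at 126 and 124 TPM in UM-UC-3 Scr and at 100.03 and 97.7 TPM in RT112 Scr, a log2 difference of -0.34 ± 0.05 (adjusted p = 0.00738, limma). BCL2, the founding member, first found at a lymphoma translocation, was at 2.31 and 3.10 TPM in UM-UC-3 Scr and at 1.99 and 1.39 TPM in RT112 Scr. Its values did not overlap between the lines either, but the log2 difference of -0.65 had a 95% interval from -1.50 to 0.20 and did not pass the test (adjusted p = 0.157, limma).

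The effectors differed from each other. BAK1, which resides in the mitochondrial membrane, was at 11.5 and 10.2 TPM in UM-UC-3 Scr and at 32.2 and 36.7 TPM in RT112 Scr. This was the largest difference among the 10 members, with a log2 difference of 1.66 ± 0.12 (adjusted p = 0.00128, limma), or 3.15-fold. BAX, which moves from the cytosol to the mitochondrion on activation, was at 198 and 177 TPM in UM-UC-3 Scr and at 161 and 174 TPM in RT112 Scr. Its log2 difference of -0.16, with an interval from -0.39 to 0.07, did not pass the test (adjusted p = 0.190, limma).

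Of the 5 BH3-only genes, BID alone passed the test. BID, which links the death receptors to mitochondria after cleavage by caspase-8, was at 94.2 and 97.5 TPM in UM-UC-3 Scr and at 156 and 160 TPM in RT112 Scr, a log2 difference of 0.72 ± 0.05 (adjusted p = 0.00118, limma). BAD, which is controlled by phosphorylation downstream of growth factors, was at 97.6 and 87.3 TPM in UM-UC-3 Scr and at 78.3 and 75.4 TPM in RT112 Scr. The log2 difference of BAD was -0.27, just outside the threshold (adjusted p = 0.0509, limma), and it passed in 6 of the alternatives, with adjusted p from 0.0200 to 0.0493.

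The p53 target genes PMAIP1 and BBC3 and the FOXO target BCL2L11 did not pass. PMAIP1, whose protein binds MCL1, was at 15.98 and 13.6 TPM in UM-UC-3 Scr and at 12.4 and 11.5 TPM in RT112 Scr (log2 difference -0.30, interval -0.66 to 0.05). BBC3 was at 8.44 and 6.38 TPM against 7.87 and 9.31 TPM, with overlapping libraries and an interval from -0.34 to 0.78 on the log2 scale. BCL2L11 was at 8.90 and 6.71 TPM against 7.86 and 8.26 TPM, with overlap and an interval from -0.46 to 0.57. In these Scr libraries 8 of the 10 members did not overlap between the lines, against 72.3% of all genes.

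The siPAI-1 libraries gave the line comparison again in cells that the Scr comparison did not use. The same 4 members were called, in the same directions, against 52.2% of 19359 genes (26.2% higher and 26.1% lower). The log2 difference between RT112 siPAI-1 and UM-UC-3 siPAI-1 was 1.77 ± 0.09 for BAK1 (adjusted p = 0.000739, limma) and 0.65 ± 0.07 for BID (adjusted p = 0.00289). It was 0.61 ± 0.10 for MCL1 (adjusted p = 0.00904) and -0.26 ± 0.05 for BCL2L1 (adjusted p = 0.0195). BAK1 was at 10.6 and 11.4 TPM in UM-UC-3 siPAI-1 and at 39.1 and 35.98 TPM in RT112 siPAI-1. BAD, with a log2 difference of 0.02 (interval -0.24 to 0.27), was not lower in RT112 in these libraries. Over all 8 libraries the lines did not overlap for BCL2, BCL2L1, MCL1, BAK1, PMAIP1 and BID, 6 of the 10 members against 56% of all genes. After this was seen, the Scr and siPAI-1 line differences were averaged in 1 fit over all 8 libraries, and in it BCL2 (-0.69, adjusted p = 0.0339, limma) and PMAIP1 (-0.31, adjusted p = 0.0166, limma) were also called lower in RT112. This fit called 60.9% of 20274 genes, so its 6 of 10 members were not above the background.

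**Figure D2:**
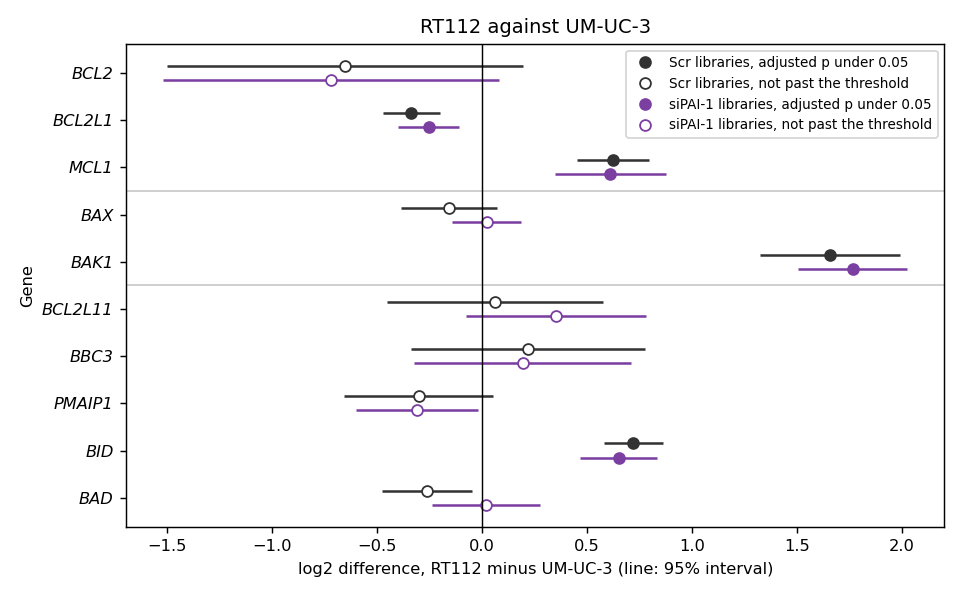
The log2 difference of each member, RT112 minus UM-UC-3, in Scr and in siPAI-1 libraries, with lines for the 95% interval from limma and filled points for an adjusted p under 0.05. BAK1 lies at 1.66 and 1.77, BID and MCL1 lie between 0.61 and 0.72, and BCL2L1 lies at -0.34 and -0.26.

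Some of these calls did not hold with 1 library left out, while the log2 differences kept their sign and stayed close to the values above. They ranged from 0.57 to 0.68 for MCL1 and from -0.35 to -0.32 for BCL2L1 in the Scr comparison. In the siPAI-1 comparison they ranged from 0.50 to 0.72 for MCL1, from -0.29 to -0.22 for BCL2L1 and from 0.58 to 0.72 for BID. In the Scr comparison MCL1 lost its call without either UM-UC-3 Scr library (adjusted p = 0.0642 without replicate 1 and 0.0644 without replicate 2, limma), and BCL2L1 without RT112 Scr replicate 2 (adjusted p = 0.0540). In the siPAI-1 comparison BID was at an adjusted p of 0.0790 without either UM-UC-3 siPAI-1 library. MCL1 was at 0.143 and 0.121 and BCL2L1 at 0.125 and 0.122 without UM-UC-3 siPAI-1 replicates 1 and 2 in turn, and MCL1 at 0.0657 without RT112 siPAI-1 replicate 2 (limma). BAK1 stayed called in both comparisons with each library left out.

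The shares of the members within each role differed between the lines. BAK1 made up 5.45% to 5.94% of the summed effector TPM in the 4 UM-UC-3 libraries and 16.6% to 18.4% in the 4 RT112 libraries, and BAX made up the rest. MCL1 made up 34.0% to 35.8% of the inhibitor sum in UM-UC-3 and 48.4% to 52.2% in RT112, and BCL2L1 62.8% to 63.7% and 46.9% to 50.5%. BCL2 stayed at or under 2.30% of it in all libraries. Among the BH3-only genes BID took 41.8% to 47.3% in UM-UC-3 and 56.9% to 60.5% in RT112, and BAD took 38.8% to 43.4% and 28.5% to 32.5%. The lines did not overlap in any of these shares. For BAD this held although its own level overlapped between the lines, since the sum holds BID, which was higher in RT112.

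The summed level of the effectors divided by that of the inhibitors was 0.939 to 1.06 in UM-UC-3 and 0.905 to 1.09 in RT112, and these ranges overlapped. The inhibitors summed to 190 to 198 TPM in UM-UC-3 and 195 to 215 TPM in RT112. The BH3-only genes summed to 197 to 225 TPM in UM-UC-3 and 244 to 265 TPM in RT112, without overlap. In Scr the higher sum rested on BID, at means of 95.85 TPM in UM-UC-3 and 158 TPM in RT112. BAD (92.5 and 76.8 TPM) and PMAIP1 (14.81 and 11.955 TPM) had lower means in RT112 Scr. BBC3 (7.41 and 8.59 TPM) and BCL2L11 (7.805 and 8.06 TPM) had slightly higher means there, with overlapping libraries. Sums of other gene sets were not compared. The whole family summed to 565 to 633 TPM and 669 to 678 TPM. RNA sums do not show how much protein is free to bind.

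**Figure D3:**
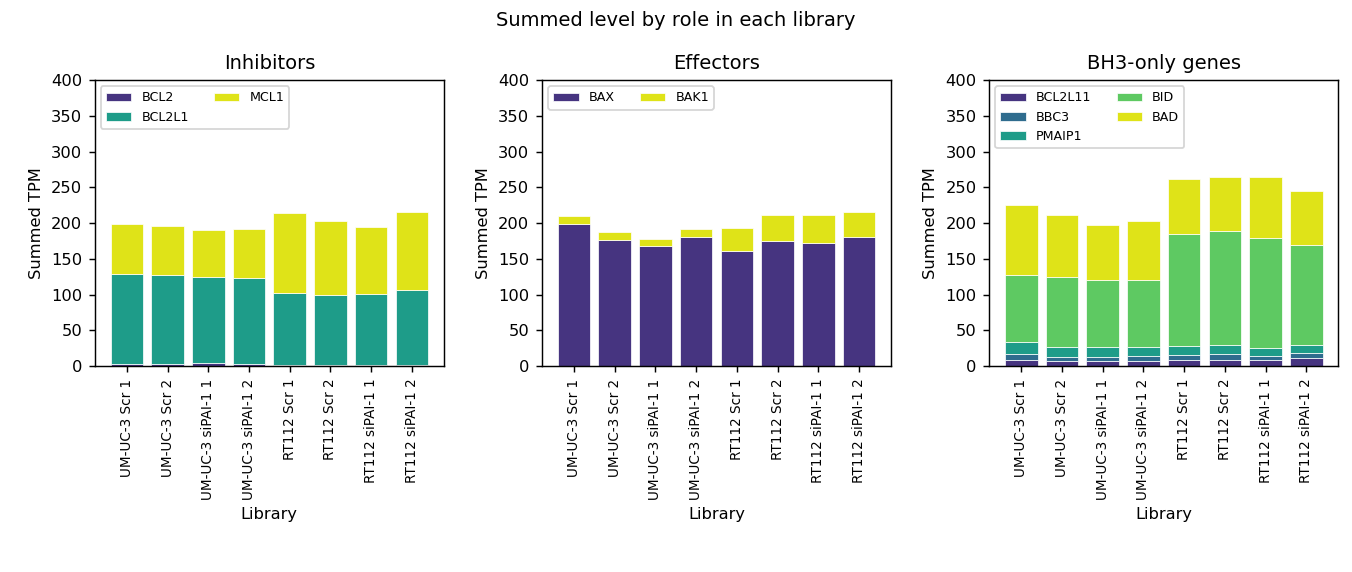
Summed TPM of the inhibitors, the effectors and the BH3-only genes in each library, stacked by gene from 0. The MCL1 part of the inhibitors, the BAK1 part of the effectors and the BID part of the BH3-only genes are taller in the 4 RT112 libraries, while the effector bars of the lines reach similar heights (178 to 210 TPM and 193 to 216 TPM).

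The second question was whether siPAI-1 moved the family within a line. No member passed the test in UM-UC-3 (0 of 10) or in RT112 (0 of 10), where limma called 0% of 18528 and 0% of 18437 genes after adjustment. Without adjustment, a p under 0.05 was found by limma for 6.01% of all genes in the UM-UC-3 comparison and for 5.77% in that of RT112. Among the members this held for 1, BAD in UM-UC-3, and for 0 in RT112. A missed threshold with 2 libraries per group does not show that a member stayed the same. The intervals rest on the spread between these libraries, which may be technical, and are not adjusted for the number of genes. Larger effects are therefore not excluded by them.

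In UM-UC-3 the smallest p among the members was that of BAD, at 97.6 and 87.3 TPM with Scr, against 76.5 and 82.9 TPM with siPAI-1. Both siPAI-1 libraries lay under both Scr libraries (log2 difference -0.21, interval -0.42 to -0.0042, adjusted p = 0.823, limma). BCL2L1, MCL1, BBC3 and BID were also lower in both siPAI-1 libraries than in both Scr libraries, which makes 5 of 10 members without overlap, all lower, against 32.2% of all genes in either direction and 17.1% lower. BID went from 94.2 and 97.5 TPM to 93.2 and 92.9 TPM (-0.04, interval -0.18 to 0.10), and BCL2L1 from 126 and 124 TPM to 121 and 120.4 TPM (-0.05, interval -0.18 to 0.08). MCL1 went from 69.6 and 69.7 TPM to 64.4 and 68.6 TPM (-0.07, interval -0.23 to 0.09).

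In RT112 BCL2 and BCL2L11 were higher and BBC3, PMAIP1 and BID lower without overlap, 5 of 10 members against 32.7% of all genes (18% higher and 14.7% lower). BCL2L11 was at 7.86 and 8.26 TPM with Scr, against 8.85 and 11.0 TPM with siPAI-1 (0.29, interval -0.16 to 0.73). PMAIP1 was at 12.4 and 11.5 TPM with Scr, against 10.6 and 11.3 TPM with siPAI-1 (-0.13, interval -0.46 to 0.20). BID was at 156 and 160 TPM with Scr, against 153 and 139 TPM with siPAI-1 (-0.11, interval -0.29 to 0.07). None of these passed the test.

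BBC3, a p53 target that binds all the inhibitors, had the most negative log2 difference of the 10 members in each line. It was at 8.44 and 6.38 TPM in UM-UC-3 Scr and 5.64 and 6.10 TPM in UM-UC-3 siPAI-1, a log2 difference of -0.32 with an interval from -0.84 to 0.20. In RT112 it was at 7.87 and 9.31 TPM with Scr, against 5.91 and 7.63 TPM with siPAI-1, a log2 difference of -0.35 with an interval from -0.89 to 0.20. The siPAI-1 libraries lay under the Scr libraries in both lines, and the test was not passed in either (adjusted p = 0.858 and 0.838, limma). The effectors did not pass either. BAK1 differed by 0.02 (interval -0.32 to 0.36) in UM-UC-3 and 0.12 (-0.14 to 0.39) in RT112, and BAX by -0.11 (-0.31 to 0.09) and 0.07 (-0.10 to 0.24) on the log2 scale, with overlapping libraries in each case.

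The siPAI-1 effect was also compared between the lines. No member passed (0 of 10, with 0% of 20274 genes called and 6.76% at an unadjusted p under 0.05, limma). The smallest p among the members was that of BAD, whose effect was 0.28 higher in RT112 on the log2 scale (interval -0.02 to 0.59, adjusted p = 0.755, limma).

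**Figure D4:**
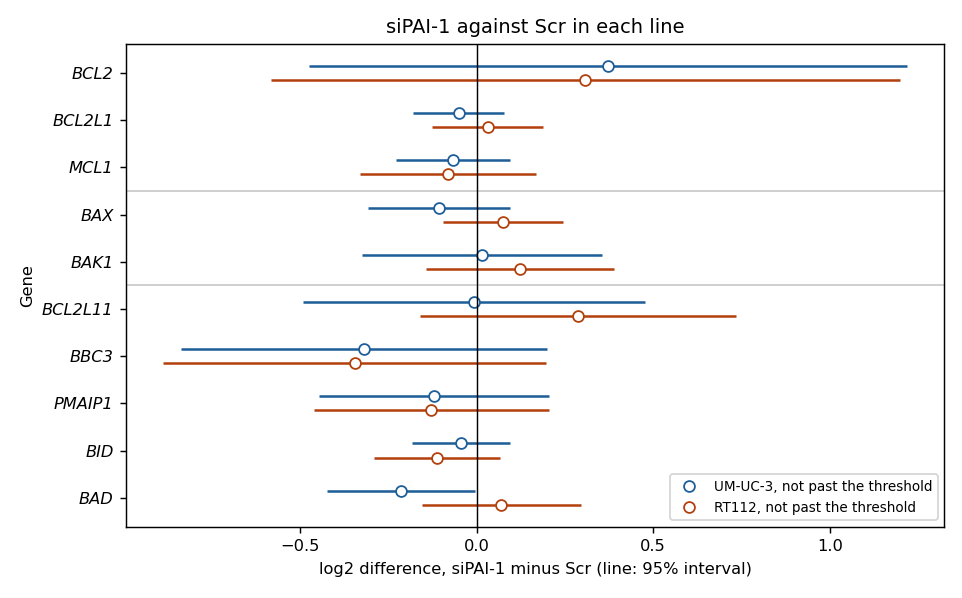
The log2 difference of each member, siPAI-1 minus Scr, for each line, with bars for the 95% interval from limma. All points are open, since none passed an adjusted p under 0.05, and the intervals of BCL2 and BBC3 are the widest.

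Other genes of the apoptosis pathway were taken from 6 lists of 61 genes, of which 59 were tested and BCL2L10 and FASLG were listed at 0 in all libraries. In the Scr line comparison 16 of the 59 were higher and 14 lower in RT112 (limma), with a median log2 difference of 0.01, against 51.6% of all genes (25.3% higher and 26.3% lower, median -0.06). With 1 library left out these counts were 7 to 10 higher and 7 to 9 lower. In the siPAI-1 libraries 18 were higher and 16 lower, and 7 to 12 and 7 to 15 with 1 library left out. These counts were near the shares of all genes, which were 26.2% higher and 26.1% lower in the siPAI-1 libraries. Among the other BCL2 family genes 2 of 12 were higher and 3 lower. The shares of all genes, 25.3% higher and 26.3% lower, are the background for the count of each list. BCL2A1, an inhibitor induced by NF-kappaB, was at 6.64 and 7.91 TPM in UM-UC-3 Scr and listed at 0 in both RT112 Scr libraries. BIK, a BH3-only gene, was at 8.60 and 10.01 TPM in RT112 Scr and at 0.00 and 0.10 TPM in UM-UC-3 Scr.

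BNIP3 and BNIP3L, hypoxia-induced mitophagy receptors related to the family, were lower in RT112. BNIP3 was at 215 and 175 TPM in UM-UC-3 Scr and 18.7 and 13.5 TPM in RT112 Scr (log2 difference -3.60), and BNIP3L differed by -1.88. BCL2L13 was higher by 0.55, a call that was lost with FPKM (adjusted p = 0.0543, limma), with a pseudocount of 0.01 TPM, without trend, and without RT112 Scr replicate 1 (log2 difference 0.35) or either UM-UC-3 Scr library. Of 13 apoptosome and caspase genes, 4 were higher and 2 lower. The executioner caspase CASP6 was higher by 0.91 on the log2 scale, and CASP10 was at 0.14 and 0.08 TPM in UM-UC-3 Scr and 1.22 and 1.71 TPM in RT112 Scr. CASP8, the protease that cleaves BID, was lower by a log2 difference of -0.52, as was HTRA2 (-0.52).

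Of 7 inhibitor of apoptosis genes 0 were higher (also 0 at an unadjusted p under 0.05, limma) and 3 were lower in RT112, namely BIRC3 (-3.20), NAIP (-1.15) and BIRC2 (-0.36). Of 11 death receptor and adaptor genes 4 were higher and 4 lower. FAS was at 15.9 and 13.3 TPM in UM-UC-3 Scr and 44.7 and 49.0 TPM in RT112 Scr (1.68), and TRADD was higher by 1.31. The ligand TNFSF10 was at 0.10 and 0.03 TPM against 4.47 and 9.01 TPM. The decoy receptor TNFRSF10D went the other way, from 11.4 and 10.3 TPM to 0.00 and 0.01 TPM, and CFLAR (-0.70) and RIPK1 (-0.52) were lower.

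Among 9 transcriptional regulators of the family 4 were higher and 1 lower. TP63, a p53 relative of basal and urothelial cells, was at 0.28 and 0.18 TPM in UM-UC-3 Scr and 34.8 and 37.4 TPM in RT112 Scr. MDM2, the p53 ligase and itself a p53 target, was higher by 1.31 and FOXO1 by 1.19, and DDIT3 was lower (-0.57). Of 7 genes for MCL1 turnover and mitochondrial channels 2 were higher and 1 lower. USP9X, a deubiquitinase that stabilizes MCL1 protein, was at 15.06 and 14.98 TPM in UM-UC-3 Scr and 35.7 and 33.8 TPM in RT112 Scr, and HUWE1, an MCL1 ligase, was higher by 0.38, while VDAC3 was lower (-0.69).

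**Figure D5:**
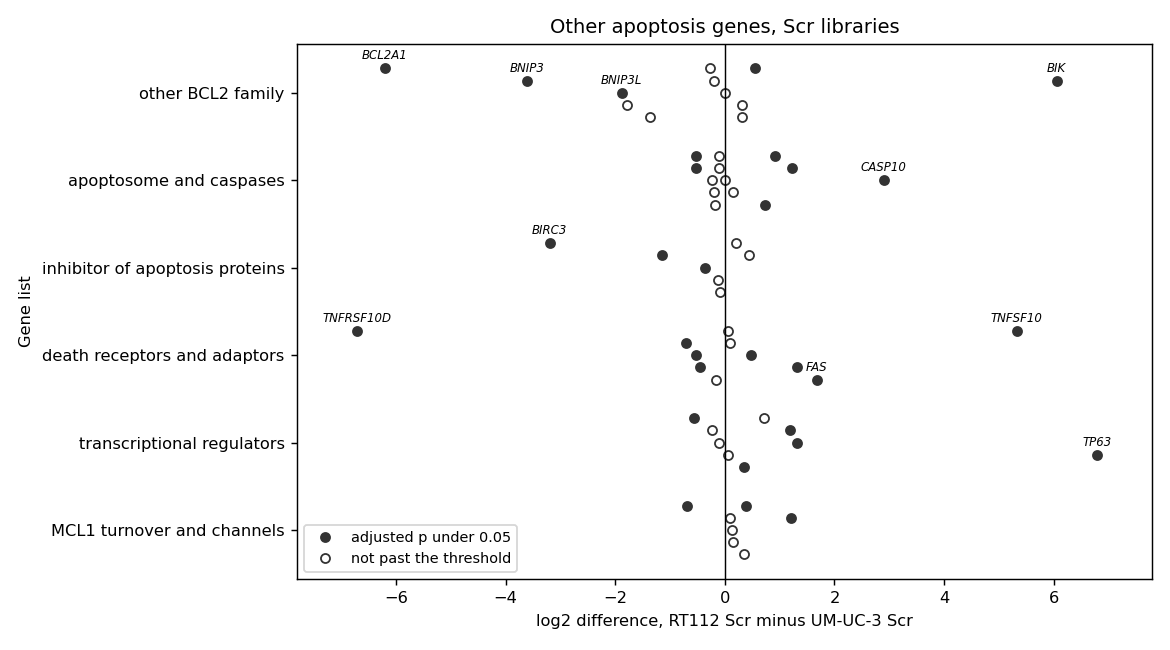
The log2 difference, RT112 Scr minus UM-UC-3 Scr, of 59 other apoptosis genes in 6 lists, with filled points for an adjusted p under 0.05 (limma). Points far from 0, such as TP63, BIK and TNFSF10 on the right and TNFRSF10D and BCL2A1 on the left, are genes near 0 TPM in 1 line, whose distance depends on the pseudocount of 0.1 TPM.

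With siPAI-1 none of the 59 pathway genes passed in either line (0 in each, and 3 in each at an unadjusted p under 0.05, limma). Of all genes 0% passed in either line, and 6.01% in UM-UC-3 and 5.77% in RT112 were under the unadjusted threshold. The smallest p in UM-UC-3 belonged to BIRC2, at 46.2 and 46.4 TPM with Scr, against 56.8 and 61.0 TPM with siPAI-1 (0.34, adjusted p = 0.791, limma), and FADD, at 35.8 and 34.3 TPM against 28.4 and 27.7 TPM (-0.32, adjusted p = 0.791). In RT112 they belonged to ENDOG, at 30.3 and 28.6 TPM with Scr, against 35.9 and 34.9 TPM with siPAI-1 (0.26, adjusted p = 0.838, limma), and MARCH5, at 37.3 and 39.4 TPM against 29.6 and 32.8 TPM (-0.30, adjusted p = 0.838).

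The genes whose levels followed BAK1 most closely were SAMD10, PLCE1, TCF25, CCND3 and DAP, with Pearson r of 0.998 to 0.999 on log2(TPM + 0.1) over the 8 libraries. These 8 libraries fall into the 2 lines, so r mainly restates the line difference, and 22.8% of 12801 genes had r above 0.95. TCF25 was at a mean of 64.3 TPM in UM-UC-3 Scr and 154 TPM in RT112 Scr, and CCND3 at 21.5 and 102 TPM.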

How the data were processed

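RNA-seq libraries of UM-UC-3 and RT112 were used, 2 for each of 4 groups assigned from the labels. The tables, deposited by the authors, give a TPM and an FPKM value for each gene. The methods name cutadapt, STAR, featureCounts, DESeq2 and hg38, while the submitters' processing notes name STAR 2.5.0, RSEM 1.2.25 and GRCh38, and the column names end as RSEM names its gene tables, so the counter behind the values is uncertain. Depth and 1 alternative rest on the deposited FPKM values. The 92 spike-in entries, at 0 in all libraries, were left out.

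Because these values are not counts, limma 3.58.1 in R 4.3.3 (lmFit, eBayes with trend, two-sided) was run on log2(TPM + 0.1), so fold changes of low genes are understated, over genes that exceed 0 TPM in 1 or more of the libraries in a fit, with Benjamini-Hochberg adjustment and a threshold of 0.05. Each comparison was fitted on its own 4 libraries and the difference of effects on all 8. The script was tested on simulated data with the spread of the real libraries, for bias, direction and false calls, with no mark set on recovery. For a log2 change of 1 it recovered 56% of changed genes in the Scr line comparison and 50% in the siPAI-1 line comparison. In the knock-down comparisons it recovered 74% in UM-UC-3 and 61% in RT112. The cut set by the adjustment depends on how many genes change. In the real libraries 0% of genes were called in each knock-down comparison, and 51.6% and 52.2% in the line comparisons. The recovered shares therefore do not give the chance that such a change was called in the real comparisons. Simulations that assumed a spread were tried first and dropped, because an arbitrary pass mark on the genes recovered was not met.

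Depth is the number of reads between 20 and 45 M that brings FPKM of genes with 1 transcript of 250 to 1200 bases closest to whole reads of 75 bases. Because larger multiples serve as well, the range was set near the average that the paper's methods state. The depth is therefore not independent of that average. Reads per gene are upper estimates from the longest transcript (GENCODE 44) and cover counting error only.

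Named are all members and, from 6 pathway lists, up to 3 genes higher and 3 lower in the Scr line comparison with the largest difference, the 2 with the smallest p in each knock-down comparison, and the 5 genes most like the member with the largest line difference. Of the genes to be named, 2 are not reported here. Values printed for EPCAM, CDH1, KRT7, KRT8 and KRT18 were chosen after they were seen. The members and lists were chosen with earlier results of these data known. Alternatives were pseudocounts of 1 and 0.01 TPM, FPKM, median ratio rescaling, a filter at a mean of 1 TPM, 1 fit over all 8 libraries, a replicate block, no trend and each library left out. Summaries and plots were made in Python 3.11.15 (pandas 2.3.3, numpy 2.4.6, matplotlib 3.10.9).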

Additional observations from a re-analysis of the deposited data

Results flagged for a closer look

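In 5 of the 59 pathway genes both siPAI-1 libraries lay above both Scr libraries in one line and below them in the other. The background was 5.14% of all 20274 genes above 0 TPM in at least 1 library, which include genes near 0 TPM. None of the 10 members did so. The siPAI-1 effect in RT112 minus that in UM-UC-3 was -0.40 on the log2 scale for BIRC2 (an inhibitor of apoptosis gene, adjusted p = 0.620, limma), 0.49 for TRADD (a death receptor adaptor, adjusted p = 0.769) and 0.14 for VDAC3 (a mitochondrial channel, adjusted p = 0.776). It was -0.48 for FBXW7 (a ubiquitin ligase subunit that targets MCL1, adjusted p = 0.647, limma) and -0.26 for BIRC5 (survivin, adjusted p = 0.750), both outside the naming rule and picked once their values were known. The test of the difference was not passed by any of them.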

How the results depend on the processing

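Of 1036 log2 differences for 79 results under the alternatives, 931 kept their direction and side of the threshold, and of 314 counts for 24 results, 263 stayed within 1.5 times the reported count. The number of members lower in RT112 Scr (1) was 2 with a pseudocount of 1, FPKM, median ratio rescaling, the 1 TPM filter, the replicate block and the fit over all 8 libraries, where BAD was added, 3 in the average over both siRNAs chosen after seeing the data, and 0 without trend, where BCL2L1 was at an adjusted p of 0.0651 (limma). In siPAI-1 libraries it was 0 without trend, with BCL2L1 at 0.118. The knock-down counts of all genes, 0 throughout, became 1 lower in UM-UC-3 with the 1 TPM filter, 2 higher in RT112 in the fit over all 8 libraries, and 4 higher and 3 lower for the difference of effects without trend.

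With 1 library left out, where the lone library is assumed to vary like the others, members lower ranged from 0 to 1 in both line comparisons and members higher from 2 to 3 in Scr and from 1 to 3 in siPAI-1 libraries. Pathway genes higher and lower ranged from 7 to 10 and 7 to 9 in Scr (16 and 14 with all libraries) and from 7 to 12 and 7 to 15 in siPAI-1 (18 and 16). Of 25 called pathway genes covered by the naming rule in Scr, 16 lost their call without at least 1 library: BCL2L13, BIK, BIRC2, CASP6, CASP8, CASP10, CFLAR, DDIT3, FAS, FOXO1, HTRA2, HUWE1, NAIP, RIPK1, TNFSF10 and TRADD, with the sign of the difference kept. Without trend BCL2L13 (adjusted p = 0.0976, limma), BIRC2 (0.0593), CASP6 (0.0501) and HUWE1 (0.0676) lost it, and with the replicate block NAIP (0.0605). Genes higher and lower ranged from 2975 to 3120 and 2655 to 3589 in Scr (4850 and 5059 with all libraries), from 2492 to 3904 and 2802 to 3238 in siPAI-1 (5064 and 5044), and from 0 to 101 and 0 to 42 for the difference of effects. These log2 values changed sign, none of them called: BCL2L11 in Scr lines (-0.14 to 0.26), BAX (-0.033 to 0.075) and BAD (-0.078 to 0.11) in siPAI-1 lines, BAK1 (-0.072 to 0.10) and BCL2L11 (-0.21 to 0.19) for siPAI-1 in UM-UC-3, and BCL2L1 (-0.0075 to 0.070), MCL1 (-0.19 to 0.028) and BAD (-0.026 to 0.16) in RT112. For the difference of effects they were BCL2 (-0.38 to 0.25), MCL1 (-0.12 to 0.094), BBC3 (-0.23 to 0.17) and PMAIP1 (-0.12 to 0.11). With FPKM, BAX (-8.54e-06) and BAD (-0.0037) changed sign in siPAI-1 lines. The added average of the siPAI-1 effects over both lines is a single value per gene, so its sign can differ from that of 1 line. BCL2L11 was at 0.14 in this average, against -0.0072 in UM-UC-3 alone. BCL2L1 (-0.0099), BAX (-0.016) and BAD (-0.072) were negative in it and positive in RT112 alone. The cause of the other sign changes was not tested.

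The replicate differences were almost uncorrelated between groups, with correlations of 0.01, -0.04, 0.04 and -0.04 over 12803 genes. This does not settle whether libraries of the same number were prepared together, which the labels do not say. The replicate block gave 2 members lower in Scr. The lowest estimated reads in any library were those of BCL2 and BBC3, as upper estimates. The part of depth in their spread was not tested, and no counts were used here.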
